A study of Mus musculus with 6 samples.

Results

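The 8 genes described here encode parts of the Notch pathway: the receptors *Notch1*, *Notch2* and *Notch3*, the ligands *Jag1* and *Jag2*, the DNA-binding factor *Rbpj*, and the target genes *Hes1* and *Dtx1*. They were chosen by name, and all 8 were found among the 45777 genes of the deposited tables. Bulk RNA sequencing had been performed on splenic T cells of female C57BL/6 mice at 7 weeks of age, split into CD4+Lrig1+ and CD4+Lrig1- fractions (Lrig1+ and Lrig1- cells below). The labels list 3 samples in each group. Values below come from 4 libraries, 2 per group. Each of 2 tables pairs 1 Lrig1+ with 1 Lrig1- library, and these pairs are named set 1 and set 2. Neither the labels nor the methods say how many mice went into a library, so the spread between libraries may be technical in part.

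Notch receptors are transmembrane proteins that are cut after a ligand on a neighbouring cell binds them, first by an ADAM protease and then by gamma-secretase. The freed intracellular domain enters the nucleus, where it joins RBPJ and a Mastermind protein on DNA, and genes such as *Hes1* and *Dtx1* are transcribed. RBPJ without Notch can recruit co-repressors. In the lymphoid system the pathway commits thymic progenitors to the T cell lineage, and Notch2 directs marginal zone B cells. In CD4+ T cells it has been linked to helper differentiation and to restraint of regulatory T (Treg) cells. *Dtx1* encodes Deltex1, a ubiquitin ligase that is also known from T cell anergy.

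The libraries held 44865070 to 59977951 estimated counts, and *Lrig1*, the sorted gene, was higher in Lrig1+ cells of both sets (221 against 75.4 and 129 against 36.7 CPM, counts over the TMM-normalized library size). *Foxp3*, which marks Treg cells, was 12.0-fold and 20.0-fold higher. Log2 CPM values of the 2 groups correlated at 0.960 and 0.959 within a set, and those of a group at 0.908 between sets. Members are therefore given by set, and results of a fit that includes the table (the table block) stand beside those of the fit without it. Of the other cell types that a sort can carry along, the B cell list (10 markers, all with counts, 7 lower in Lrig1+ cells of both sets) summed in Lrig1+ and Lrig1- cells to 106 and 84.2 CPM (set 1) and to 387 and 742 CPM (set 2). The T cell list, with *Cd3e*, *Cd4* and 8 others, summed to 4562 to 7170 CPM over the 4 libraries.

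The promoter windows of *Rbpj*, *Jag1* and *Dtx1* are shown because *Rbpj* and *Jag1* are the members that separated the groups and *Dtx1* is the member with the highest level. Each window runs from 250 bases before to 50 bases after an annotated start (RefSeq, GRCm38.p6). They lie at chr5:53590096-53590395 on the plus strand for *Rbpj*, at chr2:137116471-137116770 on the minus strand for *Jag1* and at chr5:120711620-120711919 on the minus strand for *Dtx1*. Capitals mark the core letters that RBPJ binds, TGGGAA, or the same letters on the other strand, TTCCCA.
Rbpj: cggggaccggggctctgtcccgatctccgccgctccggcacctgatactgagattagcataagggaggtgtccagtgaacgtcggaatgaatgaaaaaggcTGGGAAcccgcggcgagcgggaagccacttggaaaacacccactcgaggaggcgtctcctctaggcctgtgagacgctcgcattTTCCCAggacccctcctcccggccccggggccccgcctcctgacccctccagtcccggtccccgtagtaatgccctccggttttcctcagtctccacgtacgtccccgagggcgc
Jag1: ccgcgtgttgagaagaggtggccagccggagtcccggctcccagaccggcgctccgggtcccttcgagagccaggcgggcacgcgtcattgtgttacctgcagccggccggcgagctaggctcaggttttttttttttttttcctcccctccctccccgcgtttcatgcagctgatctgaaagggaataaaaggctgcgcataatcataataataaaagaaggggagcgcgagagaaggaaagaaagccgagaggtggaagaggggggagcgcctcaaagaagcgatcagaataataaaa
Dtx1: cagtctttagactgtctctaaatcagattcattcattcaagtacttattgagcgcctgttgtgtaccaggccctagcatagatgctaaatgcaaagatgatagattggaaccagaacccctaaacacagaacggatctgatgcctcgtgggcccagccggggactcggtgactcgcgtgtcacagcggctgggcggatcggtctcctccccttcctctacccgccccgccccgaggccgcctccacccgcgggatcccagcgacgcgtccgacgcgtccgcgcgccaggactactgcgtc
The *Rbpj* window, at the start shared by NM_009035 and NM_001277116, held these letters at 149 and at 65 bases before the start, the latter on the other strand. A second *Rbpj* window, at the start of NM_001080927, held the same TTCCCA, at 205 bases before that start. Of the 7 members matched (all but *Hes1*), 1 held the letters. Among 32817 windows of the same length 25.6% did, a share of windows and not of genes. A match of letters is a description and not a binding site.

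The levels of the members spanned a wide range. By FPKM summed over transcripts (a level per length, made by the authors), *Dtx1* was the highest in every library, with 121 and 137 in Lrig1+ and Lrig1- cells of set 1 and 85.2 and 86.7 in set 2. *Notch1* followed with 45.6 and 41.3 in set 1 and 13.6 and 12.8 in set 2. *Notch2* had 15.6 and 11.7 FPKM, then 8.29 and 7.32, and lay below *Notch1* within each set but overlapped with it across sets. The level of *Rbpj* ran from 9.73 to 11.4 FPKM, so that *Rbpj* and *Notch2* changed places between the sets. *Jag2* (0.206 to 2.95 FPKM) and *Hes1* (0.272 to 1.55 FPKM) overlapped across sets, with *Jag2* above *Hes1* in set 1 and below it in set 2. The levels of *Jag1* (0.030 to 0.222) and *Notch3* (0.0058 to 0.084) were lowest. Their ranges overlapped across libraries, but *Jag1* lay above *Notch3* in each library. In total counts, *Notch1*, *Notch2*, *Rbpj* and *Dtx1* held at least 2879 counts in every library, whereas *Hes1*, *Jag1* and *Notch3* held at most 144, 108 and 36, so depth limits what can be seen for these 3.

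**Figure D1:**
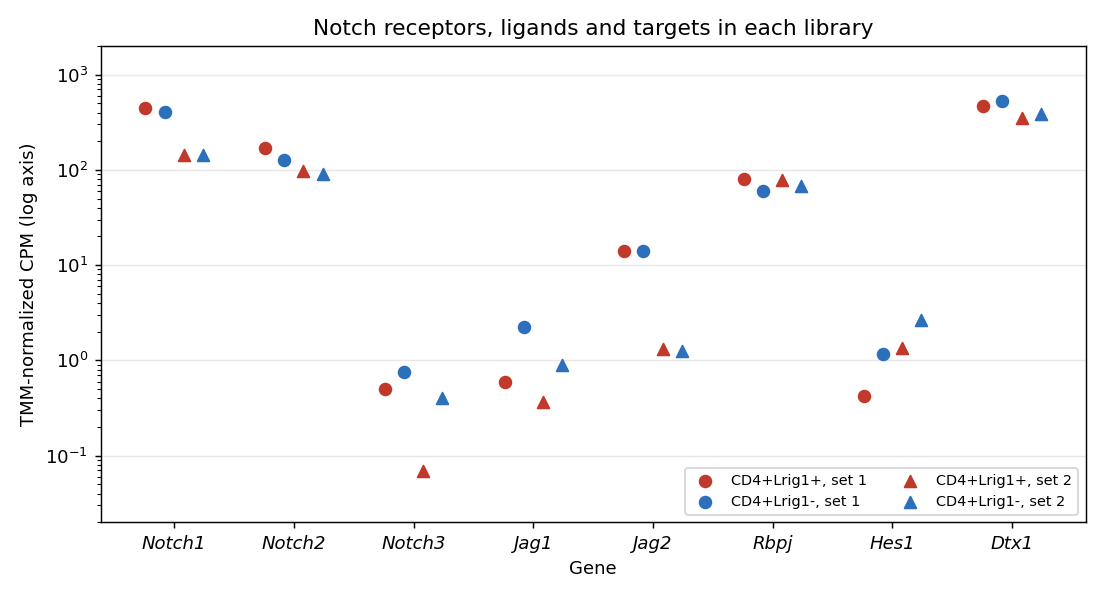
TMM-normalized CPM of the 8 genes in each library, on a log axis, with CD4+Lrig1+ in red, CD4+Lrig1- in blue, set 1 as circles and set 2 as triangles, each point being 1 library. For *Rbpj* both red points lie above both blue points, and for *Jag1* both lie below, whereas *Notch1* and *Jag2* separate by set.

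Over all 4 libraries, edgeR's quasi-likelihood test called 0 of the 8 members, where it called 0 of 16123 genes tested (0%). At an unadjusted p under 0.05 it had 0 of the 8, against 674 higher and 227 lower genes of all tested. The DESeq2 Wald test and edgeR's exact test called 0 members too, but their share of calls over all genes was not determined. The table block leaves 1 residual degree of freedom, and on simulated data it made more false calls than its threshold allows. With it, *Rbpj* was called higher and *Jag1* and *Hes1* were called lower in Lrig1+ cells. That is 1 of 8 called higher, against 14.6% of all genes, and 2 of 8 called lower, against 12.8%. In both sets 3 members were higher, where 36.5% of all genes were, and 4 were lower, where 41.3% were. Among the members the groups were fully separated with Lrig1+ cells higher for *Rbpj* alone (14.3% of all genes) and with Lrig1+ cells lower for *Jag1* alone (11.8%). The median log2 fold change of the 8 was -0.07, against -0.04 over all genes tested. Counts this small do not set the members apart from the background. With 2 libraries against 2, no exact permutation p of any gene can be smaller than 0.333.

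**Figure D2:**
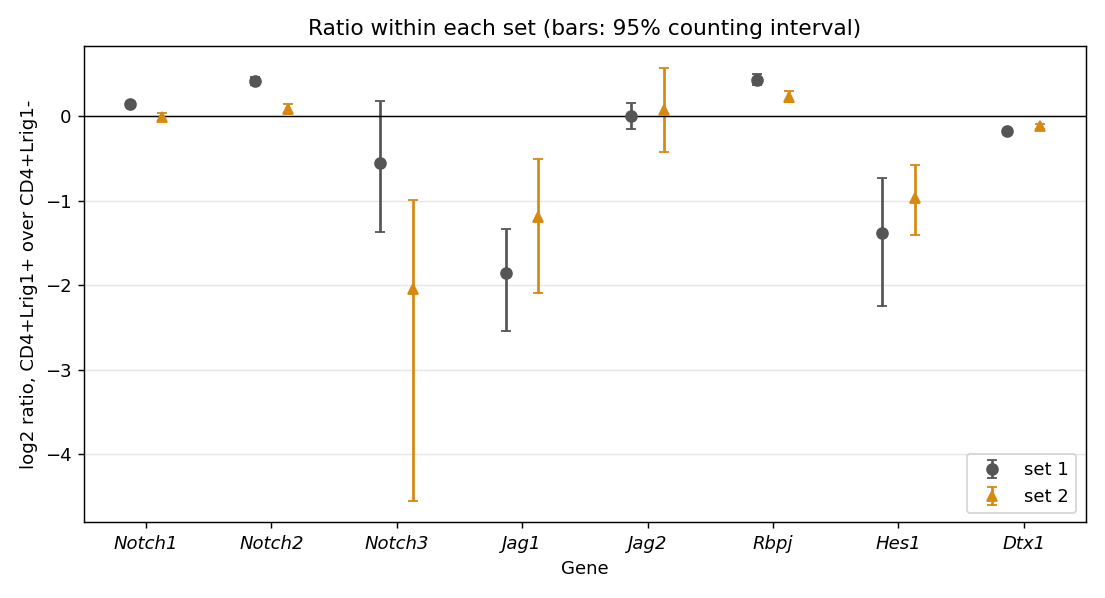
Log2 ratio of the Lrig1+ over the Lrig1- library within set 1 (grey circles) and set 2 (orange triangles), from 1 library per group and set, with bars for the 95% interval from counting error. *Rbpj* lies above 0 and *Hes1* and *Jag1* lie below 0 in both sets, with wide intervals for the latter, and the *Notch1* values lie close to 0.

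Among the receptors, *Notch1* (gene ID 18128, chromosome 2 from 26457902 to 26503822 of GRCm38), the main Notch receptor of T cells, had 449.6 CPM in Lrig1+ and 408 CPM in Lrig1- cells of set 1, and 143 and 144 CPM in set 2. The groups overlapped. Its log2 ratio was 0.14 in set 1 and -0.01 in set 2, and its log2 fold change over all libraries was 0.10 (standard error 0.83, adjusted p = 0.9998; with the table block 0.06, standard error 0.08, adjusted p = 0.626, edgeR's quasi-likelihood test). *Notch2* (gene ID 18129, chromosome 3 from 98013538 to 98150367), the receptor that marginal zone B cells depend on, had 170.1 against 127.5 CPM in set 1 and 96.5 against 91.2 CPM in set 2. It was 1.33-fold higher in set 1 and 1.06-fold higher in set 2, and the Lrig1+ library of set 2 lay below the Lrig1- library of set 1. It was not called (adjusted p = 0.0920 under edgeR's quasi-likelihood test with the block). B cells also make *Notch2*, and the part of the B cell markers, whose sums are given above, was not tested.

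*Notch3* (gene ID 18131, chromosome 17 from 32120820 to 32166896), a receptor known from immature T cells and from smooth muscle, was close to absent. It had 26 and 36 counts in Lrig1+ and Lrig1- cells of set 1 and 4 and 22 in set 2. The Lrig1+ library was the lower one in both sets, but the 95% counting interval of the log2 ratio ran from -1.38 to 0.18 in set 1 and from -4.54 to -0.99 in set 2, and the gene was not called (adjusted p = 0.203 under edgeR's quasi-likelihood test with the block). *Notch4*, the remaining receptor, had 17 to 38 counts and was not called.

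Of the ligands, *Jag1* (gene ID 16449, chromosome 2 from 137081451 to 137116520) was lower in Lrig1+ cells. It had 0.596 against 2.26 CPM in set 1 (31 and 108 counts) and 0.366 against 0.889 CPM in set 2 (21 and 48 counts). Both Lrig1+ libraries lay below both Lrig1- libraries. The log2 ratio was -1.85 in set 1 (95% counting interval -2.55 to -1.33) and -1.20 in set 2 (-2.10 to -0.51), among the lowest 1.6% and 6.1% of all genes tested. The log2 fold change was -1.70 (standard error 0.81, adjusted p = 0.9998), and with the table block it was -1.62 (standard error 0.42, adjusted p = 0.0267, edgeR's quasi-likelihood test). The authors' estimate placed 65.2% to 100% of its FPKM on a predicted transcript whose start lies downstream of the window printed above.

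Jag1 is made by stromal, endothelial and antigen-presenting cells, and markers of such cells differed in both directions. The dendritic cell list (8 markers, all with counts) summed to 14.5 CPM in Lrig1+ and 60.0 in Lrig1- cells of set 1 and to 13.8 and 62.1 in set 2, with 7 of 8 lower in both sets. The myeloid list (8 markers, all with counts) summed to 41.8 against 37.7 CPM in set 1 and 202 against 175 CPM in set 2, with 4 higher and 1 lower in both sets, and *C1qa* had 3.81 against 0.564 and 33.8 against 8.79 CPM. The endothelial gene *Cdh5* had 0.365 against 1.57 CPM in set 1 and 0.401 against 2.63 in set 2. Of the 8 stromal and endothelial markers, which summed to 152 to 218 CPM, nearly all of it *Pecam1*, 3 were lower (*Pecam1*, *Cdh5* and *Kdr*) and 2 higher (*Col1a1* and *Col1a2*) in both sets, and *Pdgfra* was at 0 in every library. The part of these cells in the *Jag1* result was not tested. In bulk samples fewer cells of a type and less RNA per cell cannot be told apart.

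*Jag2* (gene ID 16450, chromosome 12 from 112907803 to 112929812) differed between the groups by less than the counting error and had the widest difference of the members between the sets. It had 14.0 CPM in each group of set 1 and 1.31 and 1.24 CPM in set 2, so that set 1 was 10.7-fold higher. The log2 ratio was 0.00 (95% counting interval -0.15 to 0.16) in set 1 and 0.07 (-0.42 to 0.57) in set 2. In set 2 all of its counts were placed on 1 of its 8 transcripts, whereas in set 1 that transcript took 32.4% and 16.7% of the FPKM. Of the Delta-like ligands, *Dll1* had 8 to 18 counts and was not called, and *Dll3* and *Dll4*, with at most 3 and 12 counts, were left out by the filter.

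*Rbpj* (gene ID 19664, chromosome 5 from 53555779 to 53657445), through which the receptors reach DNA, had 81.0 CPM in Lrig1+ and 60.1 CPM in Lrig1- cells of set 1, and 79.2 and 67.6 CPM in set 2. The groups did not overlap. The mean was 80.1 ± 1.30 CPM (SD, n = 2) against 63.8 ± 5.26 (n = 2). It was 1.35-fold higher in set 1 and 1.17-fold higher in set 2, a log2 fold change of 0.33 (standard error 0.27, adjusted p = 0.9998; with the table block 0.33, standard error 0.08, adjusted p = 0.0215, edgeR's quasi-likelihood test). Among all genes tested its log2 ratio lay at the percentiles 79.8 in set 1 and 73 in set 2. Its level hardly differed between the sets (0.07 on the log2 scale, set 2 over set 1). The processed pseudogene *Rbpj-ps3*, whose sequence resembles *Rbpj*, held 309 and 208 counts in set 1 and 211 and 131 in set 2, so a small share of reads may have been split between them.

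By FPKM, which weighs each transcript by its length, the *Rbpj* difference was smaller than by counts (11.3 against 9.73 in set 1 and 11.4 against 10.1 in set 2). *Rbpj* has 9 transcripts in the tables, and their mix differed between libraries. NM_001080927, which starts downstream of the start in the printed window, took 33.6% and 26.8% of the *Rbpj* FPKM in Lrig1+ and Lrig1- cells of set 1 and 19.5% and 72.2% in set 2, so that the Lrig1- library of set 2 stood apart. The predicted transcript XM_006503796 took more in Lrig1+ cells of both sets (8.71% against 2.39%, and 5.54% against 0.72%). This transcript of 15532 bases held 830 against 181 counts in set 1 and 626 against 73 in set 2. XM_017320742, of 15428 bases, held 443 against 130 and 302 against 24. Together they made up most of the difference in *Rbpj* counts between the groups of each set. The call of *Rbpj* with the table block thus rests largely on reads placed on these predicted transcripts. These shares and counts are StringTie's estimates from short reads over largely shared exons, and they were not tested.

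**Figure D3:**
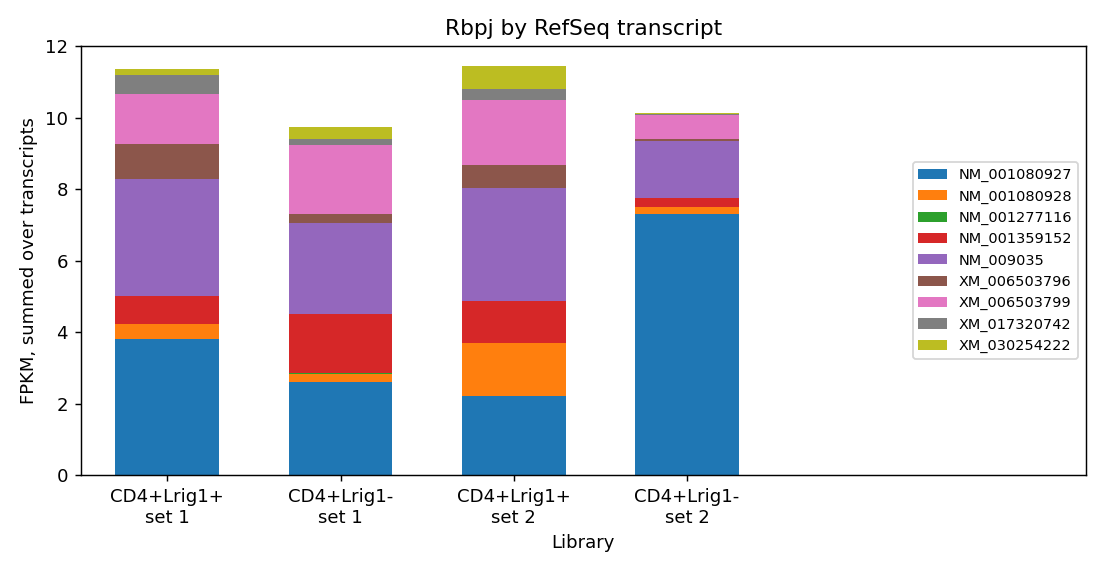
FPKM of *Rbpj* in each library, stacked by RefSeq transcript, with 1 bar per library. The bars of CD4+Lrig1+ T cells are 11.3 and 11.4 high and those of CD4+Lrig1- T cells 9.73 and 10.1, and NM_001080927 makes up 72.2% of the CD4+Lrig1- bar of set 2.

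Of the targets, *Hes1* (gene ID 15205, chromosome 16 from 30065357 to 30067796), a transcriptional repressor and the classical Notch target, was lower in Lrig1+ cells of both sets. It had 0.423 against 1.17 CPM in set 1 (22 and 56 counts) and 1.34 against 2.67 CPM in set 2 (77 and 144 counts). The groups overlapped across the sets, because the Lrig1+ library of set 2 exceeded the Lrig1- library of set 1. The log2 ratio was -1.39 in set 1 (95% counting interval -2.25 to -0.73) and -0.97 in set 2 (-1.41 to -0.58). The log2 fold change was -1.12 (standard error 0.90, adjusted p = 0.9998), and with the table block it was -1.20 (standard error 0.35, adjusted p = 0.0409, edgeR's quasi-likelihood test). *Hes1* is made by many cell types, and the lists named for *Jag1* were mixed here too, with the dendritic cell list lower and the myeloid list higher in Lrig1+ cells by their sums. The CD8 and NK cell list (7 of 8 lower in both sets) summed to 63.5 against 77.9 CPM in set 1 and 166 against 274 in set 2, and the B cell list was lower in set 2, as given above. Their part in the *Hes1* result was not tested.

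*Dtx1* (gene ID 14357, chromosome 5 from 120680203 to 120711867) was abundant and nearly equal in both groups. It had 469.8 against 532 CPM in set 1 and 353 against 384 CPM in set 2, and the groups overlapped. The log2 ratios of -0.18 and -0.12 lay within the bulk of all genes, at the percentiles 29.7 and 44.2. The log2 fold change was -0.16 (standard error 0.40, adjusted p = 0.9998; with the table block -0.15, standard error 0.08, adjusted p = 0.240, edgeR's quasi-likelihood test). *Dtx1* is also made by B cells, whose part was not tested either. NM_008052, one of the transcripts that start in the window printed above, took 91.5% to 97.4% of the *Dtx1* FPKM.

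Between the sets, the 4 members with the longest transcripts were higher in set 1 and the short *Hes1* was higher in set 2. *Notch1*, with a transcript of 9489 bases, was 2.99-fold higher in set 1 and *Notch2*, with 10506 bases, was 1.57-fold higher. *Jag1* and *Notch3* were 1.97-fold and 2.98-fold higher, whereas *Hes1*, with 1435 bases on average, was 0.386 times as high in set 1 as in set 2. The other members did not follow the order of length, since *Jag2* (4668 bases) was 10.7-fold and *Dtx1* (3731 bases) 1.36-fold higher in set 1 and the longer *Rbpj* (6189 bases) was 0.954 times as high. Across 12785 genes, which share the same 4 libraries and are not independent, Spearman's rho between transcript length and the log2 difference of set 2 over set 1 was -0.582. Between transcript length and the log2 ratio of the groups it was -0.136 in set 1 and -0.125 in set 2. Among members with a mean count of at least 50, *Jag1* had the largest mean log2 ratio in size. The genes whose log2 CPM lay nearest to it over the 4 libraries were *Fes*, *Epb41l1*, *Ccdc102a*, *Zfp629* and LOC115489889, at Euclidean distances of 0.303 to 0.425 among 12783 genes compared.

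The other genes of the pathway were taken from a list of 80 genes with the members among them, of which 73 were tested. Without the table block 0 were called, and 3 higher and 0 lower had an unadjusted p under 0.05 (*Il2ra*, *Dtx4* and *Psen2*). Of all 16123 genes tested, 674 higher and 227 lower passed this threshold, so the share of higher pathway genes was close to the background. The DESeq2 Wald test and edgeR's exact test each called 1 of the 73 higher and 0 lower, but their share of calls over all genes was not determined. Under the table block 10 were called higher (13.7%) and 16 were called lower (21.9%), against the 14.6% and 12.8% of all genes given above. In both sets 24 were higher (32.9%, against 36.5% of all genes) and 39 lower (53.4%, against 41.3%). The median log2 fold change was -0.09, against -0.04 over all genes.

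**Figure D4:**
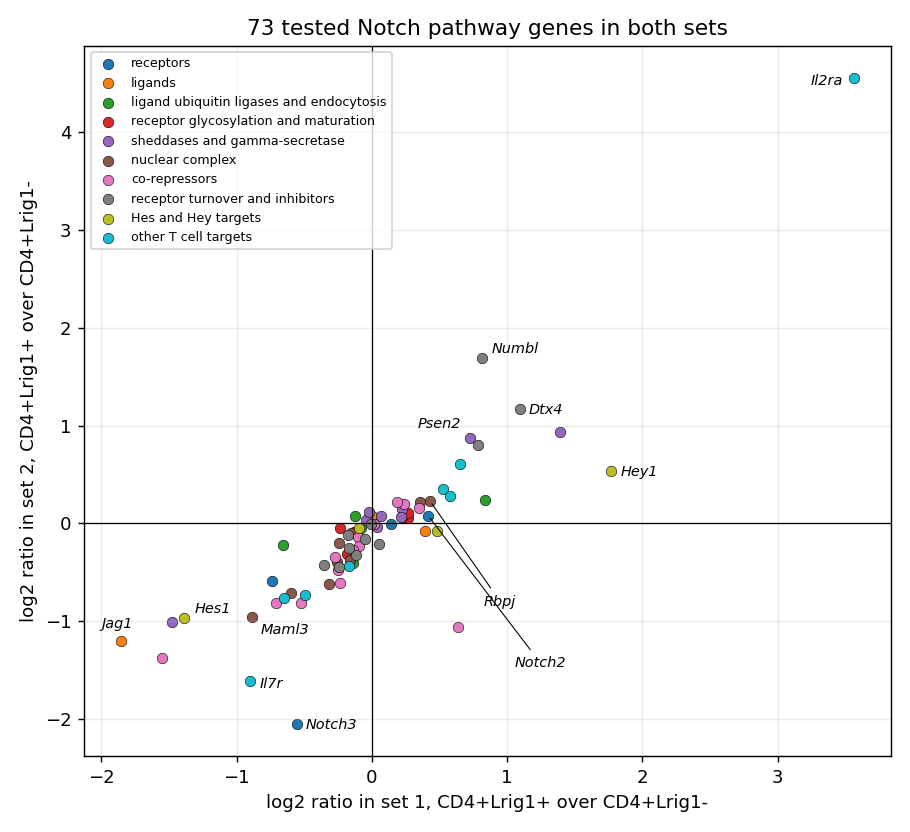
Log2 ratio of Lrig1+ over Lrig1- cells in set 1 (horizontal) and set 2 (vertical) for the 73 tested genes of the pathway, coloured by role. Most points lie near 0 in both sets, *Il2ra* stands far to the upper right, *Dtx4* and *Psen2* are higher in both sets, and *Jag1* and *Hes1* are lower in both.

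In the nuclear complex the table block called 2 of 9 genes higher (22.2%, against 14.6% of all genes) and 4 lower (44.4%, against 12.8%). *Rbpj* and *Snw1*, which encodes a splicing and transcription factor that binds RBPJ, were the higher ones (*Snw1*, log2 ratio 0.36 in set 1 and 0.22 in set 2). All 3 Mastermind genes were called lower: *Maml1* (-0.26 and -0.40), *Maml2* (-0.60 and -0.71) and *Maml3* (-0.89 and -0.96). The acetyltransferase gene *Crebbp* was called lower too (-0.31 and -0.62), whereas *Ep300*, *Kat2a* and *Kat2b* were not called. *Maml2* had 75.6 against 114 CPM in set 1 and 31.6 against 51.8 CPM in set 2, so that the groups were apart within each set and overlapped across sets. Of the 14 co-repressors the block called 5 lower (35.7%, against 12.8% of all genes) and 0 higher (against 14.6%), the Groucho genes *Tle1* (log2 ratio -0.71 and -0.81) and *Tle4* (-0.52 and -0.81) with *Ncor1*, *Kdm5a* and *L3mbtl3*. For *Tle1*, *Tle4* and *L3mbtl3* both Lrig1+ libraries lay below both Lrig1- libraries. The same held for *Ctbp1* and, at 5 to 30 counts, for *Ctbp2*, which were not called. That is 5 of the 14 co-repressors, against 11.8% of all genes. *Cir1*, not called either, was separated the other way, which is 1 of 14, against 14.3% of all genes.

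Upstream of the nucleus, *Psen2*, a catalytic subunit of gamma-secretase, was higher in Lrig1+ cells with 116 against 70.0 CPM in set 1 and 116 against 63.3 CPM in set 2. The groups did not overlap. Its log2 fold change was 0.79 (adjusted p = 0.843; 3.23e-04 with the table block, both from edgeR's quasi-likelihood test). The accessory subunit gene *Aph1b* was called higher with the table block (1.39 and 0.93), from 41 to 140 counts. Its near copy *Aph1c* (20 to 70 counts, not called) had log2 ratios of -1.48 and -1.01, and reads may have been split between these genes. The table block called 2 of the 9 sheddase and gamma-secretase genes higher (22.2%, against 14.6% of all genes) and 0 lower (against 12.8%). Of the 6 genes for receptor glycosylation and maturation, among them the Fringe gene *Lfng*, 0 were called with the table block or without it. The same held for the 5 tested for ligand endocytosis. With shares of 14.6% and 12.8% over all genes, 0 calls in lists this short do not set them apart.

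Of the 11 genes that turn receptors over or inhibit them, the table block called 3 higher (27.3%, against 14.6% of all genes). It called 2 lower (18.2%, against 12.8%). The Deltex family was uneven. *Dtx4*, a relative of *Dtx1*, had 20.3 against 9.48 CPM in set 1 and 21.0 against 9.33 CPM in set 2, with log2 ratios of 1.10 and 1.17 and no overlap (adjusted p = 0.668; 3.36e-04 with the table block, both from edgeR's quasi-likelihood test). *Dtx3* was called higher with the table block as well (0.78 and 0.80), at 106 against 61.3 CPM in set 1 and only 20.6 against 11.8 CPM in set 2. *Dtx2* and *Dtx3l* were not called. *Numb*, an inhibitor of Notch, was called lower (-0.35 and -0.43) and its relative *Numbl* higher (0.82 and 1.69). The ubiquitin ligase gene *Itch* was called lower (-0.24 and -0.45). For *Numbl* the Lrig1+ library of set 2 (2.89 CPM) lay below the Lrig1- library of set 1 (3.47 CPM). Both Lrig1+ libraries lay below both Lrig1- libraries for *Numb*, *Itch*, *Dtx2* and *Dtx3l*. That is 4 of the 11, against 11.8% of all genes, and *Dtx4* alone was separated the other way (1 of 11, against 14.3%).

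The Hes and Hey genes other than *Hes1* were not called. *Hey1* had 153 against 40 counts in set 1 and 75 against 48 in set 2, with log2 ratios of 1.77 and 0.54, the opposite direction to *Hes1*, and no overlap (adjusted p = 0.0682 under edgeR's quasi-likelihood test with the block). Of the 8 tested genes that Notch can induce in T cells or their precursors, the table block called 3 higher and 3 lower (37.5% each, against 14.6% and 12.8% of all genes). *Il2ra*, a Treg cell marker and the chain that gives the interleukin-2 receptor its high affinity, had log2 ratios of 3.56 and 4.55. *Gata3* (0.65 and 0.61) and *Myc* (0.52 and 0.35) were the other higher ones. *Il7r* (-0.90 and -1.61), *Tcf7* (-0.65 and -0.76) and *Ccnd3* (-0.50 and -0.73) were lower. The groups did not overlap for these 6 genes, nor for *Cdkn1a*, which was not called. Of the 8 genes 4 were thus separated with Lrig1+ cells higher (against 14.3% of all genes) and 3 with Lrig1+ cells lower (against 11.8%). Earlier results of these data had shown some of these genes to differ, so their directions are no independent evidence.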

How the data were processed

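RNA from the splenic T cell fractions was sequenced by the authors as stranded paired-end mRNA libraries. Per the labels' processing notes and the methods, reads were trimmed with Trimmomatic 0.38, mapped with HISAT2 2.1.0 and assembled with StringTie 2.1.3b on GRCm38. The estimated counts of 129299 RefSeq transcripts were deposited without normalization, and 97.5% to 98.0% of the values from 1 to 50 equal the FPKM times length and a constant, rounded up. FPKM came from StringTie as deposited, and its sum over a library differed between the sets (374165 to 385076 against 591966 to 598247).

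The labels list 6 samples, of which 4 libraries were used. A further table holds 6 columns, which are counts, FPKM and TPM of 2 libraries. Their names leave the Lrig1 group open, and the table was not used here. Counts were added up by gene symbol. In R 4.3.3, filterByExpr of edgeR 4.0.16 kept 16123 genes. TMM normalization and edgeR's quasi-likelihood test without a block followed, and calls were made at an adjusted p (Benjamini-Hochberg) under 0.05. The table block adds a term for the table of a library. Log2 ratios of a single set, with a prior count of 2, have no replicates, and their 95% intervals (exact binomial) cover counting error only, since reads without molecular identifiers are not independent molecules. Alternatives were DESeq2 1.42.0 (size factors and Wald test), edgeR's exact test, limma 3.58.1 on log-scaled FPKM with pseudocounts of 1 and 0.1, other filters and thresholds, removal of genes of other cell types, and leaving out each library. Both fits were tested on simulated data, where the fit without a block called none of the changed genes and the table block found most of them but exceeded its nominal share of false calls. Calls with the block are therefore less certain than their adjusted p states. Files were read with Python 3.11.15.

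The members, lists and table block were chosen with earlier results of these data known. Beside the members, the remaining receptors and ligands were named, as were up to 25 pathway genes called in either fit with the same sign in both sets. Genes given as not called for comparison (*Aph1c*, *Lfng*, *Dtx2*, *Dtx3l*, *Hey1*, *Ep300*, *Kat2a*, *Kat2b*, *Cdkn1a*, *Ctbp1*, *Ctbp2*, *Cir1*) were chosen after their values were seen. Likeness was the Euclidean distance of centred log2 CPM over the 4 libraries.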

Additional observations from a re-analysis of the deposited data

How the results depend on the processing

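The members' calls rest on the table block. The columns carry no replicate number, so the table was the only pairing that could be used as a replicate block. It called 1 member higher and 2 lower (10 and 16 of the pathway genes). Without immunoglobulin genes and markers of B, plasma and erythroid cells and platelets it also called 1 and 2 (10 and 17). This alternative was chosen after seeing the data. It takes those genes out of the fit but leaves reads of such cells in the members' counts, so it cannot test the part of other cell types. At an adjusted p under 0.1 with the block the counts were 2 and 2 (14 and 24). The share of all genes called was not determined at this threshold or in the alternative fits. These counts therefore cannot be set against a background. Without the block every other fit called 0 members. Of the pathway genes the DESeq2 Wald test and edgeR's exact test called 1 higher each. At an unadjusted p under 0.05, 3 were higher, against 674 of all 16123 genes tested. Leaving out 1 library gave 0 to 1 higher, with 1 where Lrig1- of set 1 or Lrig1+ of set 2 was missing. Since such fits ignore the set, the log2 fold change ran from -0.94 to 1.08 for *Notch1*, -0.16 to 0.64 for *Notch2*, -0.37 to 0.14 for *Dtx1* and -2.54 to 2.65 for *Jag2*. Signs turned without Lrig1+ of set 1 for *Notch1* (-0.94), *Notch2* (-0.16) and *Jag2* (-2.54), without Lrig1- of set 2 for *Notch1* (-0.46) and *Jag2* (-0.87), and for *Dtx1* without Lrig1- of set 1 (0.14) or Lrig1+ of set 2 (0.034). *Rbpj* (0.29 to 0.42), *Hes1* (-2.18 to -0.40), *Jag1* (-2.22 to -0.84) and *Notch3* (-2.99 to -0.21) kept their direction. For *Jag2*, near 0, the sign also turned with DESeq2's size factors and its Wald test (-0.043 each), with at least 10 counts in every library (-0.024) and with log2(FPKM + 1) (-0.006). Within a set, signs turned for *Notch1* in set 2 (0.003 with DESeq2's size factors, 0.081 and 0.086 by FPKM) and *Jag2* in set 1 (-0.055, -0.043 and -0.056). Of 64 members' ratios under other scalings, 44 lay within the counting interval of the main ratio and 20 outside it. By log2(FPKM + 1) the called members kept their signs but lay outside in both sets. In set 1 and set 2 *Rbpj* had 0.20 and 0.16, *Hes1* -0.49 and -0.47, and *Jag1* -0.20 and -0.052. The cause of these changes within a set was not tested.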
